A study of Mus musculus with 3 samples.

Results

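The EGF receptor family was followed through the cells of mouse skin as 10 genes, 8 of them ligands (Areg, Ereg, Hbegf, Tgfa, Btc, Epgn, Egf and Nrg1) and 2 receptors (Egfr and Erbb3), chosen by name from the 32285 genes of the count matrices. All 10 had UMIs in each library, a UMI being the molecular tag that marks 1 captured transcript. Single cells of full-thickness dorsal skin of wild-type C57BL/6J mice, labelled female and given as 8 weeks old, which by the study's methods was the age when bought and so before the 12 weeks of UV, were profiled by droplet-based sequencing in 3 libraries, 1 per condition. The CON library came from skin that had vehicle and no UV, and the UV library from vehicle-treated skin irradiated on alternate days over 12 weeks with UVA at 0.60 and UVB at 3.5 mW/cm2. The Rux library came from skin given the same UV and, straight after each irradiation, an ointment with 1.5% ruxolitinib, an inhibitor of the kinases JAK1 and JAK2. UV and Rux skin was taken 24 h after the last exposure. The number of mice in a library was not stated in the sources used here, so each library counts as 1 sample, no p-value is given, and the 95% intervals (exact Poisson for levels, Clopper-Pearson for shares) cover counting error only, not the spread between cells or mice.

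Members of this family are made as membrane-anchored proteins that proteases cut free, so that a cell can signal to itself and to its neighbours. AREG, EREG, HB-EGF, TGF-alpha, BTC, EPGN and EGF bind the EGF receptor, which drives keratinocyte growth and migration and, in the hair follicle, patterning of the hair. NRG1 binds ERBB3, a receptor with little kinase activity of its own that signals with a partner such as ERBB2.

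Before the values, 3 facts of the libraries bear on them. All 3 libraries, labelled female, held the Y-linked gene Ddx3y at 110, 115 and 122 CPM (its counts scaled to 1000000 UMIs) in CON, UV and Rux, with Xist at 0.115, 0.104 and 0.0988 CPM, so the RNA went against the labelled sex in each library alike. The libraries shared 50 (CON and UV), 28 (CON and Rux) and 40 (UV and Rux) cell barcodes of 11287 to 13170. After filtering, 10885, 10327 and 9386 cells stayed in CON, UV and Rux, at a median of 7542, 7621 and 9446 UMIs per cell.

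Cells were clustered without the 10 genes and without other genes of their pathway, and the 47 clusters were grouped into 19 classes named from markers (written FB-like and so on), 5 epithelial clusters that shared markers of several classes and are given by number, and 4 unnamed clusters. FB-like cells (fibroblasts) numbered 3489, 4605 and 3952 in CON, UV and Rux, and all 7 of their markers were found in at least 10% of them. KB-like cells (basal keratinocytes, 509, 44 and 99) and KS-like cells (suprabasal keratinocytes, 264, 26 and 48) were few in UV and Rux. The other epithelial classes were UHF-like cells of the upper follicle (245, 85 and 82), HF-like cells of the bulge and outer root sheath (303, 107 and 72) and IRS-like cells of the inner root sheath and hair shaft (313, 461 and 378). Of the epithelial clusters given by number, cluster 5 (1037, 128 and 44 cells) was led by genes of dividing cells, cluster 8 (101, 568 and 396) by Itga2, Slpi and Fgf5, cluster 12 (518, 161 and 58) by Pi15, Lhx2 and Lgr5, cluster 16 (298, 194 and 139) by Aldh3a1, Ccl27a and Sostdc1, and cluster 19 (83, 164 and 307) by Pthlh, Krt6a and Barx2. Every class thus held different numbers of cells in the libraries, and shares of cells with a UMI also move with depth. The level of a gene in a class is therefore the sum of its UMIs over the cells of the class, scaled to CPM with the total UMIs of those cells.

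Epgn, Ereg, Areg and Btc, which encode 4 of the EGF receptor ligands, lie in 1 stretch of 375.5 kb on chromosome 5 (GRCm38, bases 91027464 to 91402994). Epgn (ENSMUSG00000035020, 91027464 to 91035215), Ereg (ENSMUSG00000029377, 91074622 to 91093646) and Areg (ENSMUSG00000029378, 91139599 to 91148432) are on the plus strand, and Btc (ENSMUSG00000082361, 91357261 to 91402994) is on the minus strand. The other ligands are elsewhere, Tgfa on chromosome 6 (86195223 to 86275719), Egf on chromosome 3 (129677565 to 129755316) and Nrg1, which spans 1069.5 kb, on chromosome 8 (31814551 to 32884029). Egfr lies on chromosome 11 (16752203 to 16918158) and Erbb3 on chromosome 10 (128567523 to 128589652). The sequences before the start sites of Areg and Epgn, from RefSeq on GRCm38.p6, are shown because these neighbours shared several epithelial sources, while Areg alone was high in lymphoid and myeloid cells. Capitals mark a cAMP response element (TGACGTCA), an SP1 motif (GGGCGG) and a TATA box (TATAAA).
Areg, chr5:91139349-91139598, plus strand: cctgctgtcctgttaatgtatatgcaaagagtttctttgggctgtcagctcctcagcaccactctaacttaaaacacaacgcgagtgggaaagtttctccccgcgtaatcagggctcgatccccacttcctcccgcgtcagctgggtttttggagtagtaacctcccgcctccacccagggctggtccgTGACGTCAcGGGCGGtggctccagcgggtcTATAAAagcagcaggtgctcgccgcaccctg
Epgn, chr5:91027267-91027463, plus strand: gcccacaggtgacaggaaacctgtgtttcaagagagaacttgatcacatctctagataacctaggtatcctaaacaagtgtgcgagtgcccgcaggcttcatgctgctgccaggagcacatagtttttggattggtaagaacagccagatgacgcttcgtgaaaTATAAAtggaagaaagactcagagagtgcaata
In Areg the 3 motifs began 61, 52 and 31 bases before the start site, and Epgn held the TATA box alone, 33 bases before the start in GENCODE and 86 before that in RefSeq. The Epgn window was shortened to 197 bases so as to end before the GENCODE start. Over 32851 promoters of 250 bases, searched on both strands, the cAMP response element was found in 1.55%, the SP1 motif in 32.7% and the TATA box in 12.4%. An AP-1 motif (TGANTCA, in 6.75% of promoters) and the STAT-type GAS motif (TTCNNNGAA, in 7.02%) were found in none of the 6 members matched to a promoter sequence. A match is a description of letters in this window only.

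Over all retained cells, Areg stood at 53.6, 90.0 and 66.0 CPM in CON, UV and Rux, Hbegf at 144, 163 and 117, Epgn at 73.5, 70.9 and 38.6, and Tgfa at 14.8, 17.4 and 14.2. Ereg had 6.52, 3.88 and 6.45 CPM, Btc 1.35, 1.07 and 0.994 and Egf 1.62, 1.79 and 1.10. Nrg1 had 89.2, 81.5 and 170 CPM, and the receptors Egfr and Erbb3 had 442, 581 and 632 CPM and 54.7, 39.7 and 28.8 CPM. These sums follow the mix of cells as well as the level within a cell, and with summed RNA the number of cells and the RNA per cell cannot be told apart, so the classes are given one by one.

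**Figure D1:**
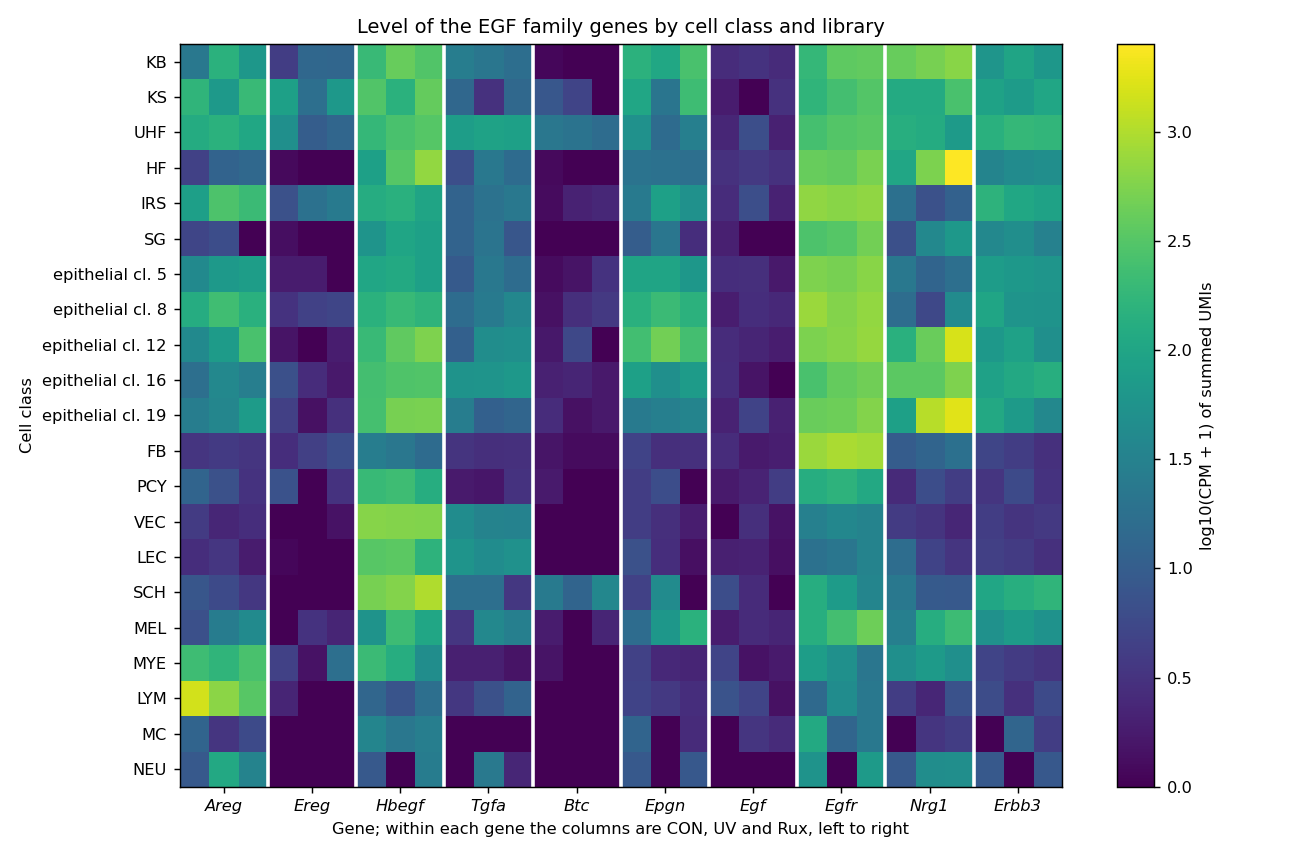
Heat map of the level of each of the 10 genes, as log10(CPM + 1), in the cell classes (rows, at least 20 cells, grey where fewer), with CON, UV and Rux as adjoining columns for each gene. Areg is at its highest in LYM-like cells of all 3 libraries, Hbegf is spread over endothelial, Schwann and epithelial classes, Egfr is low in endothelial and lymphoid cells, and Nrg1 is brightest in HF-like cells and epithelial clusters 12 and 19 of Rux.

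Areg, amphiregulin, an EGF receptor ligand made by keratinocytes and by T cells, had its highest class level in LYM-like cells (lymphocytes) of every library, and the next highest differed. LYM-like cells held 1470 CPM (1411 to 1531) in CON, 641 CPM (602 to 683) in UV and 325 CPM (302 to 349) in Rux, so no intervals overlapped. A UMI of Areg was seen in 48.4%, 35.1% and 32.1% of them, and in 39.1%, 25% and 20.2% once each cell was thinned to 2000 UMIs. VEC-like cells (blood endothelium) gave the background, 1.67%, 1.08% and 1.66% of cells. In CON, LYM-like cells were 2.32% of the cells and gave 30.2% of all Areg UMIs.

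The LYM-like cells were 4 clusters that differed in Areg. Cluster 44, led by Trdc, Cd3g and Cd3e (T cell receptor delta and CD3 genes), held 87 cells of CON and none of UV or Rux, and its Areg level was 3042 CPM (2895 to 3194). Cluster 40, led by Ikzf3, Il17a and Icos, had 1980, 1776 and 560 CPM in 43, 44 and 59 cells. Cluster 22, led by Icos, Cd28 and Camk4, had 151, 398 and 220 CPM, and cluster 43, led by Gzmc and Xcl1, had 208, 467 and 422 CPM. The log2 ratio of UV over CON in LYM-like cells was -1.20 (-1.31 to -1.09) with cluster 44 and -0.06 without it. A difference past 2-fold was thus seen only with this cluster, all of it from CON. Rux over CON was -2.18 with and -1.04 without cluster 44. Single cells held much of these sums. In LYM-like cells of UV, 1 of 239 cells held 194 of the 974 Areg UMIs and 2 cells held 280. In CON, 2 of 252 cells held 407 of the 2302. The part of these cells in the ratios and cluster levels was not tested.

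MYE-like cells (myeloid) had 223, 165 and 265 CPM of Areg. Their cluster 21, led by Lyz2 and Il1b, stood at 301, 319 and 268 CPM. Cluster 38, with Cd207 and Ccr7 of Langerhans and dendritic cells, had 215, 61.0 and 229 CPM, and cluster 27, with C1qa and C1qb of macrophages beside immunoglobulin transcripts, had 166, 75.8 and 299 CPM. The level in UV was thus below both other libraries in clusters 38 and 27 but not in cluster 21.

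Among epithelial cells, Areg was higher in UV than in CON in the IRS-like class, at 82.2 CPM (76.1 to 88.7) in CON, 285 CPM (275 to 295) in UV and 210 CPM (201 to 218) in Rux. The log2 ratio of UV over CON was 1.79 (1.67 to 1.91), and the thinned shares of cells with a UMI were 8.33%, 22.0% and 16.9%. Shh, a gene of the hair matrix, went the other way in these cells, at 27.1, 2.37 and 1.54 CPM. Markers of the class differed between the libraries as well. Krt71 (781, 2577 and 2940 CPM) and Tchh (190, 631 and 1220 CPM) were higher in UV and Rux than in CON, while Krt73 was lower (354, 202 and 317 CPM). The part of these differences in the Areg values was not tested. Epithelial cluster 8 held 128, 229 and 142 CPM, and with its 568 cells it gave 39.97% of all Areg UMIs of UV, next to 31.9% from IRS-like cells. Epithelial cluster 12 stood at 40.5, 72.8 and 269 CPM, a log2 ratio of Rux over UV of 1.89 (1.66 to 2.11), but in Rux 127 of the 315 UMIs came from 1 of the 58 cells and 171 from 2. KB-like cells had 22.0 CPM (18.6 to 25.7) in CON, 148 CPM in the 44 cells of UV and 61.6 CPM in Rux. KS-like cells had 166, 67.0 and 201 CPM, with 25 of the 33 UMIs of UV in 1 cell, and UHF-like cells 124, 146 and 104 CPM. FB-like cells had 2.36, 2.82 and 2.40 CPM and a UMI in 1.32% to 1.85% of cells, at the level of the endothelial background.

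**Figure D2:**
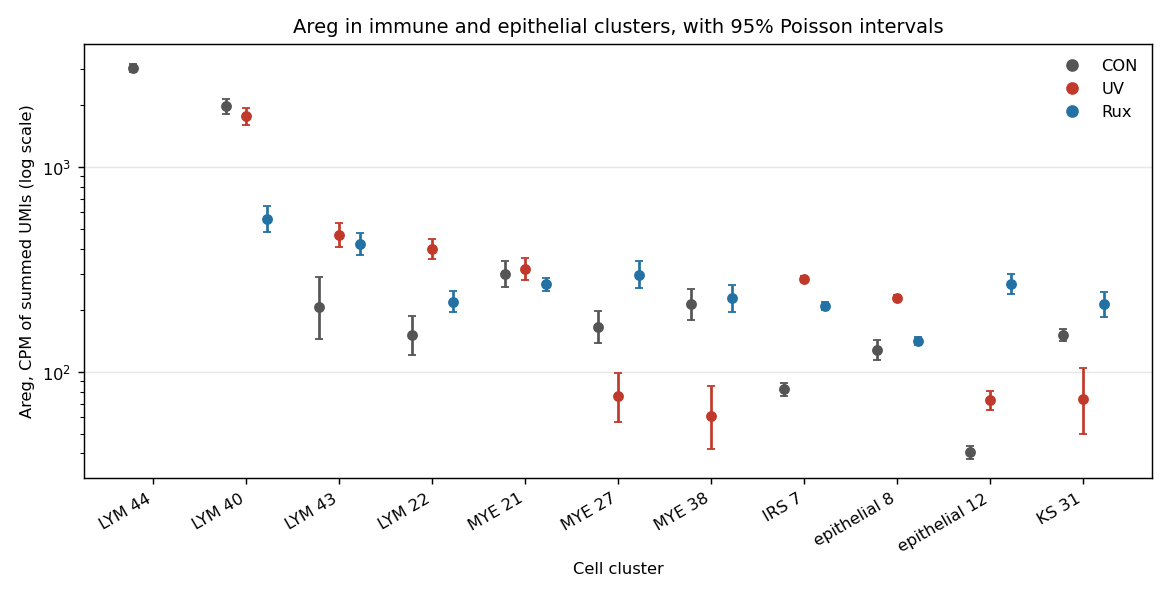
Areg level (CPM, log axis) in the clusters of LYM-like and MYE-like cells, IRS-like cells, epithelial clusters 8 and 12 and the main KS-like cluster, as 1 point per library with its 95% Poisson interval. Cluster 44 has a point for CON only, at 3042 CPM, and the lymphoid cluster 40 lies at 1776 CPM in UV and 560 CPM in Rux, while the IRS-like points of UV and Rux lie above that of CON.

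Epgn, epigen, whose gene lies before Areg on chromosome 5, was highest in epithelial cells. Its level was 234 CPM (227 to 241), 475 CPM (456 to 495) and 245 CPM (218 to 275) in epithelial cluster 12 of CON, UV and Rux, so UV stood above both other libraries. KB-like cells had 154 CPM (145 to 164) in CON, 104 CPM in the 44 cells of UV and 263 CPM (243 to 284) in Rux. Epithelial cluster 8 had 145, 209 and 151 CPM and cluster 5 had 97.1, 95.5 and 62.6 CPM. IRS-like cells went from 24.1 CPM in CON to 84.6 CPM in UV and 50.9 CPM in Rux, a UV over CON log2 ratio of 1.81 (1.59 to 2.04), while UHF-like cells had 51.5, 14.7 and 28.2 CPM, a ratio of -1.79 (-2.49 to -1.20). LYM-like cells, where Areg was high, had 3.83, 2.63 and 1.76 CPM of Epgn and MYE-like cells 3.55, 1.46 and 1.23 CPM, close to the 3.21, 1.87 and 0.893 CPM of VEC-like cells. FB-like cells had 3.90, 1.84 and 1.97 CPM. MEL-like cells (melanocytes) had 14.9, 62.2 and 149 CPM, but few of them carried it: 16 of 161 cells held the 72 UMIs of CON, 10 of 72 the 114 of UV and 5 of 37 the 122 of Rux. In UV these carriers had 3261 CPM of KB markers against 611 CPM in the other MEL-like cells.

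Ereg, epiregulin, which binds the EGF receptor and ERBB4, was low. KS-like cells held 84.4 CPM (77.3 to 92.0) in CON and gave 56.1% of its UMIs there, and 217 of these 520 UMIs came from the 25 cells of cluster 45, led by Lor and Lce genes of the cornified layer, at 590 CPM. Among all 264 KS-like cells of CON, 2 cells held 219 of the 520 UMIs, 121 of them in 1 cell. UHF-like cells had 48.9 CPM (42.2 to 56.4) in CON against 9.17 CPM (5.13 to 15.1) in UV and 12.3 CPM (7.88 to 18.3) in Rux, and 78 of the 189 UMIs of CON came from 1 of 245 cells. IRS-like cells ran the other way, at 5.97, 17.8 and 24.2 CPM with no overlap of the intervals, and gave 46.4% of the Ereg UMIs of UV. In MYE-like cells Ereg had 7 UMIs in CON, 1 in UV and 68 in Rux, of which 67 lay in cluster 21. FB-like cells had 1.78, 3.38 and 5.36 CPM, and the log2 ratio of Rux over CON, 1.57, was 0.53 without cluster 35, a cluster led by Saa3 and Hp with 0, 16 and 224 cells. In that cluster of Rux, 8 cells carried 115 UMIs.

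Btc, betacellulin, had only 192, 125 and 116 UMIs in all cells of CON, UV and Rux. UHF-like cells held 21.5, 18.9 and 14.9 CPM with overlapping intervals, in 23.3%, 24.7% and 19.5% of cells. The 25 cornified cells of cluster 45 in CON had 114 CPM from 42 UMIs. Among all KS-like cells of CON, 11 cells carried the 46 Btc UMIs, with 30 of them in 2 cells. SCH-like cells (Schwann) had 23.5, 11.4 and 36.4 CPM from 13, 7 and 14 UMIs, too few to tell the libraries apart. Egf itself was at or under 6.39 CPM in every class with at least 50 cells, on 231, 210 and 128 UMIs in all.

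Hbegf, heparin-binding EGF-like growth factor, was read from endothelial, glial and epithelial cells alike. VEC-like cells held 606 CPM (580 to 632), 593 CPM (573 to 615) and 573 CPM (542 to 605), and the 3 intervals overlapped. SCH-like cells had 506 CPM (449 to 569), 589 CPM (530 to 653) and 983 CPM (887 to 1088), highest in Rux. Their thinned shares of cells with a UMI were 57.1%, 45.9% and 55.7%, so that by this share Rux was not above CON. LEC-like cells (lymphatic endothelium) had 333 and 347 CPM in CON and UV but 160 CPM (144 to 176) in Rux, a log2 ratio of Rux over UV of -1.12. PCY-like cells (pericytes and smooth muscle) had 197, 218 and 132 CPM, SG-like cells (sebaceous gland) 56.6, 98.2 and 84.3 CPM and MEL-like cells 55.3, 215 and 102 CPM. In MEL-like cells of UV, 18 of 72 cells carried the 395 Hbegf UMIs, and 2 cells held 180 of them. These carriers had 2490 CPM of KB markers against 130 CPM in the other MEL-like cells. MYE-like cells had 207, 132 and 46.1 CPM, with a log2 ratio of Rux over UV of -1.52 that became -0.74 with the clusters weighted as in CON. Cluster 27 alone had 527, 298 and 185 CPM. FB-like cells had 26.7, 21.2 and 14.5 CPM.

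In the epithelium, Hbegf in HF-like cells went from 83.9 CPM (75.6 to 92.9) in CON to 314 CPM (287 to 344) in UV and 714 CPM (662 to 769) in Rux. The thinned shares of cells with a UMI were 10.4%, 27.1% and 51.4%. The log2 ratio of Rux over UV, 1.18 (1.01 to 1.35), was 0.41 at a clustering resolution of 0.8 and 0.74 under a stricter cell filter. Epithelial cluster 19 had 250, 503 and 520 CPM, cluster 12 had 201, 372 and 555 CPM, and KB-like cells had 201, 411 and 296 CPM. UHF-like cells had 184, 263 and 322 CPM. KS-like cells had 305, 148 and 393 CPM and IRS-like cells 126, 143 and 95.4 CPM.

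Genes known to rise when tissue is taken apart moved with these values in HF-like cells. All 12 of a list of such immediate-early and heat-shock genes (Fos, Jun, Egr1, Hspa1a and others) were at least 2-fold higher in UV than in CON and in Rux than in CON, against 6.66% and 7.85% of all genes. Their summed level was 6379, 17293 and 22867 CPM. The same sum was 7913, 10466 and 9208 CPM in epithelial cluster 12 and 8044, 10426 and 9315 CPM in cluster 19. Mki67, a gene of dividing cells, stood at 332, 84.2 and 4.09 CPM in HF-like cells, and Krt15, a bulge keratin, at 1994, 4293 and 4414 CPM. The part of these differences in the Hbegf and Nrg1 values was not tested.

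Tgfa, a ligand whose loss gives wavy hair in mice, was close between the libraries in its leading classes. UHF-like cells held 78.4 CPM (69.8 to 87.7), 91.0 CPM (77.0 to 107) and 85.6 CPM (73.1 to 99.6), and epithelial cluster 16 had 54.3, 56.5 and 63.6 CPM, in both cases with overlapping intervals. LEC-like cells had 57.2, 43.6 and 51.5 CPM and VEC-like cells 44.7, 32.6 and 30.8 CPM. Epithelial cluster 12 differed, with 10.1 CPM in CON against 46.0 CPM in UV and 47.8 CPM in Rux. The log2 ratio of UV over CON was 2.19 (1.90 to 2.48). But in Rux only 15 of the 58 cells carried the 56 UMIs, with 17 of them in 1 cell. The thinned shares of cells with a UMI were 1.95%, 8.92% and 1.82% in CON, UV and Rux, the last from 55 cells. By this share, unlike the level, Rux was not above CON. In epithelial cluster 19 Tgfa was lower in UV and Rux, at 26.8, 10.1 and 12.0 CPM, with 19 of the 47 UMIs of CON in 1 cell. FB-like cells had 2.21, 1.84 and 1.99 CPM.

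Nrg1, neuregulin 1, a ligand of ERBB3 and ERBB4 rather than of the EGF receptor, had log2 ratios of Rux over CON from -5.48 (-6.54 to -4.70) in unnamed cluster 17 to 4.61 in HF-like cells. In HF-like cells it stood at 103 CPM (93.8 to 113) in CON, 543 CPM (506 to 581) in UV and 2524 CPM (2425 to 2625) in Rux. In epithelial cluster 19 it stood at 85.5 CPM (72.4 to 100), 1100 CPM (1059 to 1144) and 1760 CPM (1726 to 1796), and in epithelial cluster 12 at 143 CPM (138 to 149), 421 CPM (402 to 440) and 1552 CPM (1481 to 1625). In all 3 the order was CON, UV, Rux with no overlap of the intervals.

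The log2 ratios in HF-like cells were 2.40 (2.23 to 2.56) for UV over CON and 2.22 (2.10 to 2.33) for Rux over UV. In cluster 12 they were 1.56 (1.47 to 1.64) and 1.88 (1.79 to 1.98), and in cluster 19 they were 3.68 (3.45 to 3.93) and 0.68 (0.62 to 0.74), the last under 2-fold. Thinned to 2000 UMIs, 10.4%, 29.9% and 56.9% of HF-like cells, 14.04%, 31.8% and 76.4% of cluster 12 cells and 8.54%, 38.2% and 54.1% of cluster 19 cells had a UMI of Nrg1, against 1.11%, 0.833% and 0.930% of VEC-like cells. The counts in HF-like cells of Rux did not rest on few cells: 55 of 72 cells carried the 2466 UMIs, and the 2 highest cells held 423 of them. In cluster 19 the 2 highest cells held 62 of the 150 UMIs of CON and 644 of the 2604 of UV. In Rux, cluster 19 made up 3.27% of the cells and gave 49.5% of all Nrg1 UMIs.

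Nrg1 was also read from other cells. KB-like cells, the main source in CON with 22.7% of its UMIs, had 406 CPM (391 to 421), 507 CPM in 44 cells and 636 CPM (605 to 668). Epithelial cluster 16 had 348, 353 and 554 CPM, and UHF-like cells 133, 123 and 69.7 CPM. IRS-like cells and epithelial cluster 8 were low, at 17.3, 6.01 and 10.5 CPM and at 15.2, 4.41 and 42.6 CPM. In cluster 8 the log2 ratio of Rux over UV was 3.26 (2.93 to 3.63), from 81 UMIs in UV and 564 in Rux, which was above that of HF-like cells. But in Rux only 61 of the 396 cells carried these 564 UMIs, with 164 of them in 1 cell and 240 in 2. MYE-like cells had 48.2, 70.9 and 48.3 CPM. Unnamed cluster 17, led by Adgrb3, Lingo2, Hhip and Dcc, went against HF-like cells, with 403 CPM (387 to 420) in CON, 55.6 CPM in UV and 8.67 CPM in Rux. FB-like cells had 8.85, 11.4 and 17.0 CPM, of which cluster 37 stood out at 93.6, 245 and 370 CPM. With the unnamed clusters 2 and 13, which carry fibroblast markers, counted as FB-like, the log2 ratio of UV over CON of Nrg1 turned from 0.36 to -0.25. However, 1 of the 4605 FB-like cells of UV held 89 of the 346 Nrg1 UMIs there. In cluster 13 of CON, 2 of the 116 cells held 121 of the 164 Nrg1 UMIs. The part of these cells in either ratio, and so in this turn, was not tested.

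**Figure D3:**
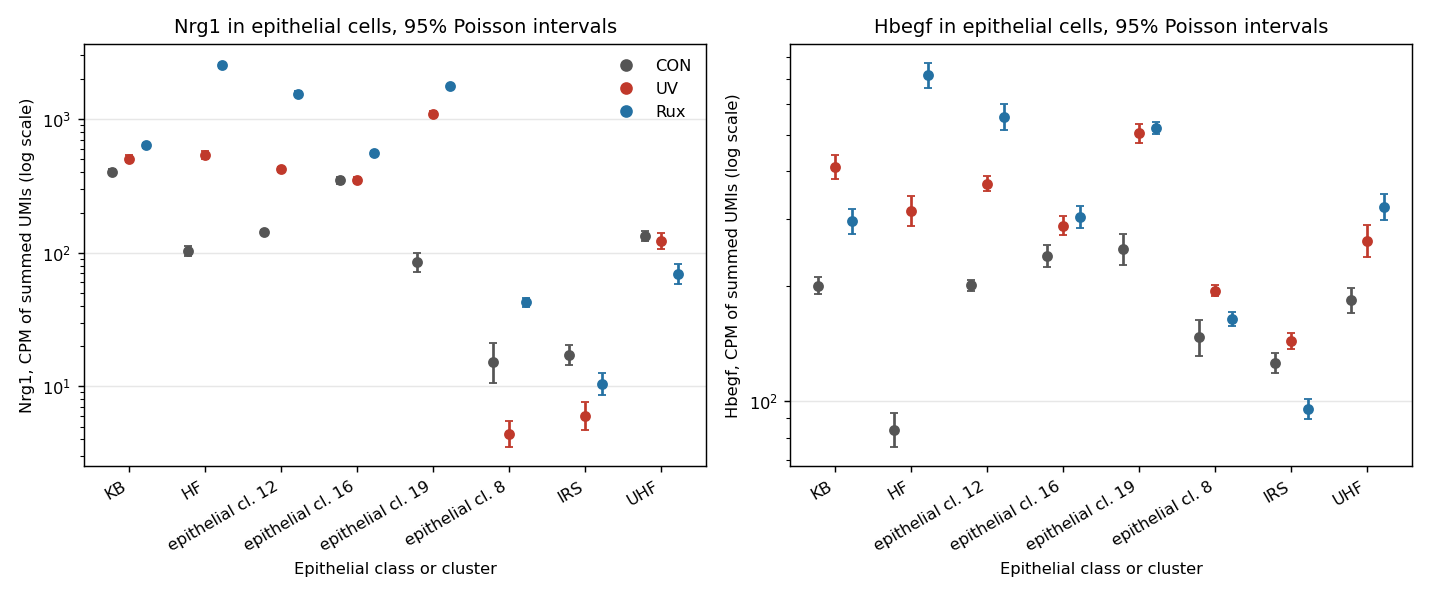
Nrg1 and Hbegf levels (CPM, log axis) in KB-like, HF-like, IRS-like and UHF-like cells and epithelial clusters 8, 12, 16 and 19, as 1 point per library with its 95% Poisson interval. Nrg1 lies higher in UV than in CON and higher again in Rux in HF-like cells (103, 543 and 2524 CPM) and in clusters 12 and 19. KB-like cells (406, 507 and 636 CPM) and cluster 16 have the same order, with overlapping CON and UV intervals in cluster 16. The UHF-like, IRS-like and cluster 8 points do not follow that order. The Hbegf points have the same order in HF-like and UHF-like cells and in clusters 12, 16 and 19.

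Egfr, the receptor of the first 7 ligands, was read from most classes and was high in fibroblasts and the follicle epithelium. FB-like cells had 767 CPM (755 to 779) in CON, 934 CPM (923 to 945) in UV and 851 CPM (842 to 860) in Rux, with a UMI in 83.5%, 83.9% and 86.5% of cells. They gave 25.4%, 41.8% and 42.8% of all Egfr UMIs, and made up 32.1%, 44.6% and 42.1% of the cells. These shares leave out the unnamed clusters 2 and 13, which carry fibroblast markers. Cluster 2 held a further 2027, 8576 and 13456 Egfr UMIs and cluster 13 held 329, 660 and 1645. Unnamed cluster 11 also scored highest for fibroblast markers, but had a median of 618 UMIs per cell and was led by immunoglobulin genes. It held 591, 142 and 142 Egfr UMIs, at 1124, 1012.5 and 1008 CPM. The FB-like shares are thus not those of all fibroblast-marked cells. The log2 ratio of UV over CON was 0.28 (0.26 to 0.31), and -0.02 with the fibroblast clusters weighted as in CON, so that the class level moved with the mix of its clusters.

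Fibroblast clusters differed more from each other than between libraries. Cluster 9 stood at 1799, 1564 and 1314 CPM in CON, UV and Rux, cluster 6 at 1193, 1069 and 1057, cluster 4 at 918, 1034 and 965, cluster 0 at 761, 812 and 908, cluster 3 at 755, 861 and 793 and cluster 1 at 733, 672 and 666. Cluster 14 had 426, 402 and 499 CPM and cluster 37 had 167, 130 and 237 CPM. Among clusters with 50 cells in each of the libraries compared, no fibroblast cluster reached a 2-fold difference in Egfr between libraries, whereas clusters 9 and 37 lay more than 5-fold apart within each library. The fibroblast-marked cluster 2, led by Postn and Cthrc1, had 762, 1029 and 873 CPM, and cluster 13, led by Lrrc15 and Col11a1, had 161, 273 and 310 CPM.

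**Figure D4:**
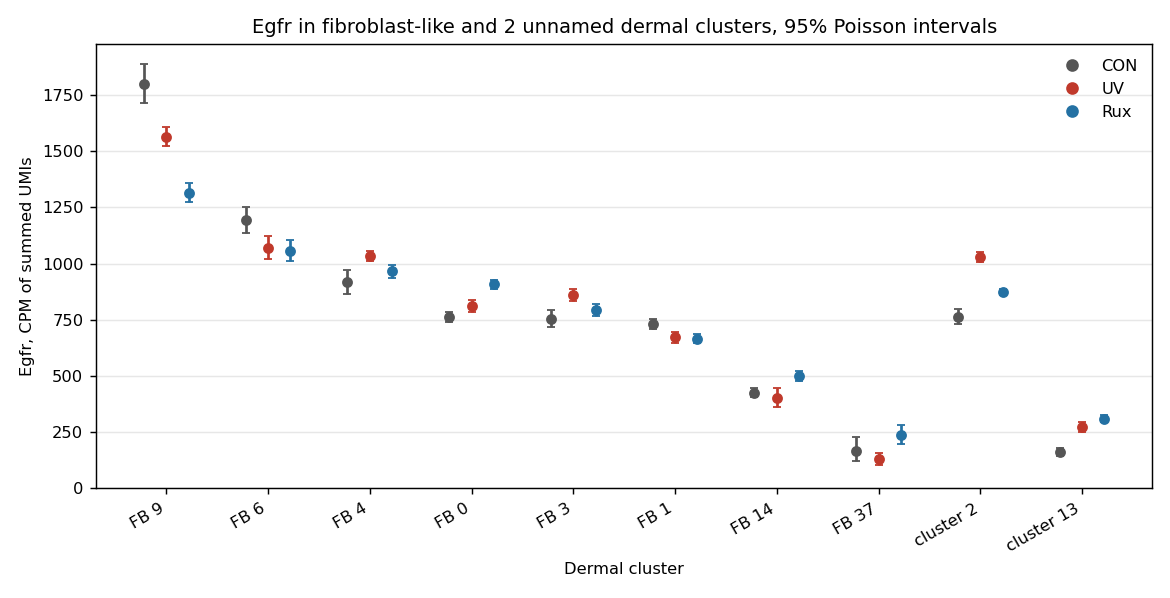
Egfr level (CPM, linear axis from 0) in 8 clusters of FB-like cells and in the fibroblast-marked unnamed clusters 2 and 13, as 1 point per library with its 95% Poisson interval. Cluster 9 lies at 1314 to 1799 CPM and cluster 37 at 130 to 237 CPM, and the points of the 3 libraries within a cluster lie closer together than these clusters do.

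In the epithelium, Egfr stood at 776, 585 and 698 CPM in epithelial cluster 8, at 693, 635 and 680 CPM in IRS-like cells, at 560, 500 and 621 CPM in cluster 5 and at 532, 615 and 741 CPM in cluster 12. Cluster 19 had 417, 453 and 594 CPM and HF-like cells 411, 379 and 524 CPM. KB-like cells had 183 CPM (173 to 193) in CON and 378 CPM (355 to 403) in Rux, a log2 ratio of 1.05 (0.92 to 1.17), and the 44 cells of UV had 357 CPM. KS-like cells had 168, 246 and 309 CPM and UHF-like cells 247, 311 and 341 CPM. SG-like cells had 282, 322 and 481 CPM, the last from 20 cells.

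Outside the epithelium and the fibroblasts, MP-like cells (muscle progenitors) had 374 CPM (323 to 429) in the 153 cells of CON. They had 624 CPM (531 to 729) in the 64 cells of UV and 782 CPM (644 to 942) in the 33 of Rux. A UMI was seen in 55.6%, 64.1% and 81.8% of these cells. The class was weakly marked, as only 4 of its 6 markers were found in at least 10% of cells in each library. Pax7 was in 12.4%, 18.8% and 15.2% of cells of CON, UV and Rux, and Msc in 4.58%, 1.56% and 6.06%. PCY-like cells had 130, 157 and 112 CPM and MEL-like cells 133, 241 and 440 CPM, with UMIs in 33.5%, 38.9% and 32.4% of cells and higher KB markers in the carriers of each library. Endothelial cells were low, at 29.5, 36.5 and 32.1 CPM in VEC-like and 17.5, 20.3 and 32.1 CPM in LEC-like cells, with 51 of the 81 UMIs of LEC-like cells of Rux in 1 cell. In VEC-like cells the log2 ratio of Rux over UV was -0.18, and -1.34 without cluster 28, which held 75, 174 and 63 cells and was led by Rgs5, Fabp4 and Cd36, with the pericyte gene Abcc9 also among its leading genes. LYM-like cells, the class with the highest Areg, had 13.4, 44.1 and 22.0 CPM of Egfr, and MYE-like cells 77.1, 50.04 and 20.4 CPM. SCH-like cells had 132, 73.2 and 33.8 CPM from 73, 45 and 13 UMIs. In each of these 3 classes 1 cell held much of a sum: 28 of the 67 UMIs in LYM-like cells of UV, 45 of 103 in MYE-like cells of UV and 38 of 73 in SCH-like cells of CON.

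Erbb3, the receptor of NRG1, was epithelial and glial. IRS-like cells had 155 CPM (147 to 164) in CON, 106 CPM (99.9 to 112) in UV and 89.3 CPM (83.8 to 95.03) in Rux, without overlap. UHF-like cells had 141, 183 and 172 CPM, and epithelial cluster 16 had 87.8, 111 and 134 CPM. SCH-like cells, in which NRG1 signalling through ERBB3 is known to sustain the lineage, had 103, 137 and 169 CPM, and MEL-like cells had 51.6, 73.6 and 52.6 CPM. In epithelial cluster 19 Erbb3 went from 113 CPM (97.7 to 130) in CON to 71.0 CPM in UV and 37.9 CPM in Rux, opposite to Nrg1 in those cells. The log2 ratio of Rux over CON there was -1.58 (-1.86 to -1.29). HF-like cells had 33.1, 43.4 and 47.1 CPM of Erbb3, with overlapping intervals, and epithelial cluster 12 had 64.7, 86.4 and 48.7 CPM. Nrg1 had the order CON, UV, Rux in both, and neither shared the Erbb3 order of cluster 19. FB-like cells had 4.09, 3.18 and 1.94 CPM.

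Counting each of the 10 genes in every named class or epithelial cluster with at least 50 cells in both libraries and at least 20 UMIs of the gene over both, UV over CON had 122 pairs in 18 classes, of which 27 were at least 2-fold higher and 13 at least 2-fold lower. This was 32.8% of pairs, against 10.7% of the 208913 pairs of all genes, 5.94% higher and 4.73% lower. Rux over UV had 91 pairs, 9 higher and 8 lower, 18.7% against 7.07% of all pairs, 2.33% higher and 4.73% lower. Rux over CON had 106 pairs, 26 higher and 14 lower, 37.7% against 14.7% of all pairs, 6.42% higher and 8.3% lower. The median log2 ratio was 0.27, 0.11 and 0.26 for the members and -0.03, -0.03 and -0.06 for all genes. Each library enters 2 of these comparisons, so they are not independent, and the members of a class share its cells.

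The genes did not contribute alike. Erbb3 was never past 2-fold in UV over CON (14 classes, log2 ratios from -0.79 to 0.51) or in Rux over UV (9 classes), and Egfr passed in 1 of 18 classes in UV over CON, the LYM-like cells with 21 and 67 UMIs. In Rux over UV, Egfr was at least 2-fold lower in 3 of 14 classes (LYM-like, MYE-like and SCH-like cells) and higher in none. In Rux over CON it was higher in 1 of 17 (KB-like) and lower in 3 (MYE-like, SCH-like and the MC-like mast cells). The MC-like pair rested on 10 UMIs in 4 of the 63 cells of CON, 7 of them in 1 cell. In Rux it had 14 UMIs in 8 of 207 cells. In UV over CON, Nrg1 was at least 2-fold higher in 5 and lower in 3 of 14 classes, Epgn higher in 5 and lower in 3 of 14, Areg higher in 4 and lower in 1 of 15, and Hbegf higher in 4 and lower in none of 18. In Rux over UV, Nrg1 was at least 2-fold higher in 3 of 10 classes and lower in none, and Tgfa in none of 11 either way. Some of the pairs rested on few cells. For Nrg1, 2 cells held 206 of the 242 UMIs in MEL-like cells of UV. In SG-like cells of UV 1 cell held 50 of its 84 UMIs, and in LEC-like cells of CON 1 cell held 61 of 95. For Epgn in UV, 1 cell held 26 of the 46 UMIs in SG-like cells and 25 of 26 in SCH-like cells. The lower Epgn pairs included FB-like (3.90 and 1.84 CPM) and LEC-like cells (5.90 and 1.81), near the VEC-like 3.21 and 1.87 CPM in CON and UV. In MEL-like cells of UV, 9 of 72 cells carried the 70 Tgfa UMIs, 2 of them 55, and these cells had a median of 58217 UMIs against 10937 in the others and 3092 CPM of KB markers against 825 CPM.

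**Figure D5:**
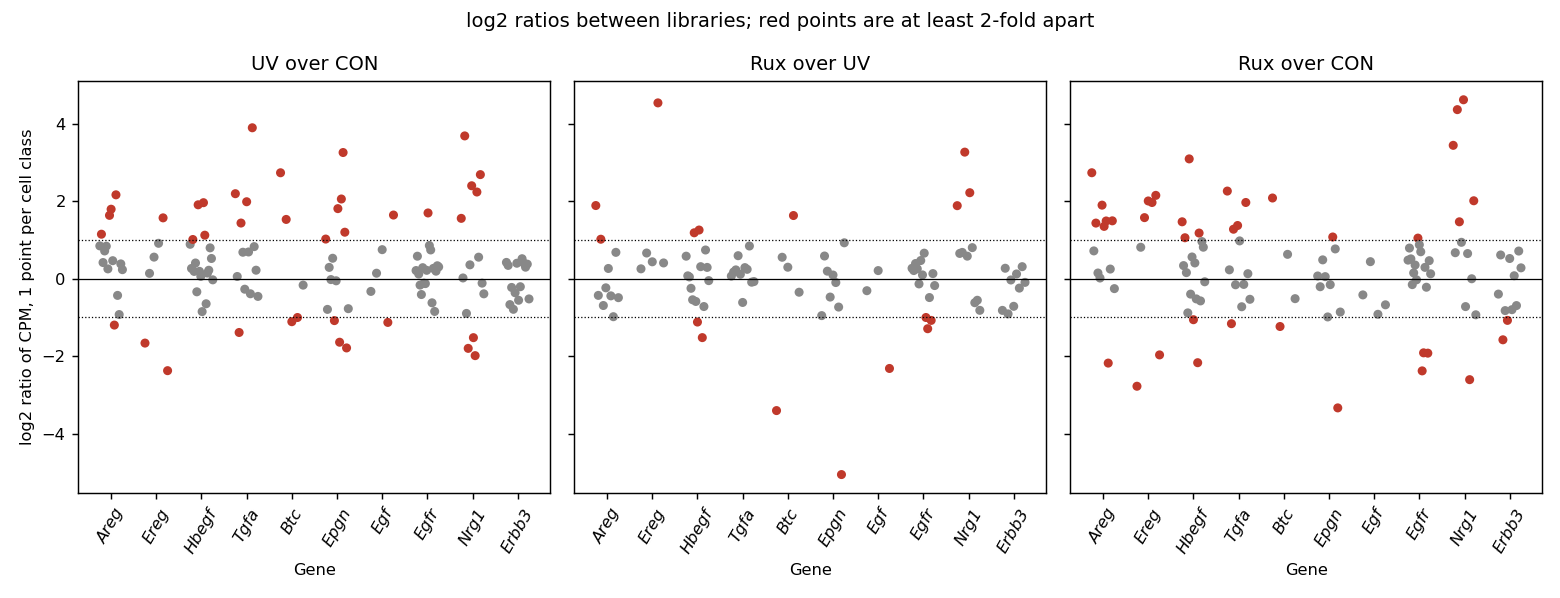
Log2 ratios of each of the 10 genes in each cell class for UV over CON, Rux over UV and Rux over CON (3 panels), 1 point per class with at least 50 cells in both libraries and 20 UMIs, red where past 2-fold. Nrg1 spans -1.98 to 3.68 in UV over CON, while the Erbb3 points stay between -0.79 and 0.51 there. The lowest of these Nrg1 points is that of LEC-like cells, where 1 cell held 61 of the 95 UMIs of CON.

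Other genes of the pathway were described as lists in FB-like cells, where Egfr was high, and in HF-like cells, where Nrg1 had its highest level in Rux. In FB-like cells, 13.9% of all genes were past 2-fold in UV over CON and 5.32% were at least 2-fold lower, with a median log2 ratio of -0.07. Of 19 inhibitors and feedback genes, 4 were at least 2-fold lower and none higher, namely Dusp6, a phosphatase of ERK (24.1 CPM in CON and 10.4 in UV), Dusp5, another ERK phosphatase (101 and 50.1), and Spry1 (44.4 and 20.3) and Spry4 (12.8 and 6.40), Sprouty inhibitors of receptor signalling. Of 11 transcripts that follow ERK activity, 3 were at least 2-fold lower, Egr1 (log2 ratio -1.64), Ccnd1 (-1.44) and Fos (-1.20), and 10 were below 0, with a median of -0.64. The 12 immediate-early and heat-shock genes, which share Egr1 and Fos with that list, had a median of -0.96 in the same cells, and their part was not tested. None of 21 relay genes from Grb2 to Mapk3 passed 2-fold.

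In Rux over UV in FB-like cells, where 9.12% of all genes were past 2-fold, none of the feedback, ERK or relay genes passed. Adam12, a metalloprotease that can release HB-EGF, was higher, at 15.5, 26.4 and 72.2 CPM in CON, UV and Rux, a log2 ratio of Rux over UV of 1.45 (1.34 to 1.57). None of the other 5 genes measured from the list on release of ligands passed. Adam12 was also among the leading genes of the fibroblast-marked cluster 2, which these FB-like levels leave out. The FB-like cells include cluster 35, with 0, 16 and 224 cells in CON, UV and Rux. The part of either cluster in the Adam12 values was not tested. Among the other ligands of the family, Nrg3 had 9, 57 and 21 UMIs, Nrg2 had 52, 22 and 25 UMIs and Nrg4 had 19, 44 and 25 UMIs in FB-like cells, under 3 CPM each.

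In HF-like cells 15.4% of all genes were past 2-fold in UV over CON, 6.66% higher and 8.72% lower. Of the 11 ERK transcripts, 7 were at least 2-fold higher (Phlda1, Maff, Fosl1, Ier3, Fos, Myc and Egr1) and 2 lower (Ccnd1 and Etv4), with a median log2 ratio of 1.27, and of 18 feedback genes Dusp6, Errfi1 and Spry4 were higher and Lrig1 lower. These are the cells in which all 12 dissociation genes were higher as well. In KB-like cells only Rux over CON had enough cells. There Plaur (log2 ratio 1.30) and Socs5 (1.13) were the pathway genes past 2-fold, both higher. Of all genes in these cells, 14.1% were past 2-fold either way and 8.29% were at least 2-fold higher, so these names are not a result about the lists.

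Across 60 sums of a class and library, from 24 classes, the genes whose log2(CPM + 10) followed each member most closely are given as a description, since sums of 1 library share its depth and preparation. Nrg1 went with Krt15 (Pearson r = 0.84) and Col17a1 (0.83), genes of the basal and bulge keratinocyte, and Epgn with Plek2 (0.92) and Ripk4 (0.84). Erbb3 went with Tfap2a (0.90) and Fxyd3 (0.89), Tgfa with Rassf9 (0.82), Btc with Crabp2 (0.87) and Ereg with Csta1 (0.79). Egfr went with Irx2 (0.84), with Bnc2 (0.82) and with Egfros (0.84), a transcript named for its overlap with Egfr, with which it may share reads. Hbegf went with the stress gene Atf3 (0.78), Areg with Ubac2 (0.75), and Egf with no gene above 0.50.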

How the data were processed

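Dorsal skin was dissociated with enzymes and profiled on the 10x Genomics 3′ platform in 1 library per condition (CON, UV, Rux). For each library the authors deposited raw UMI counts for 32285 genes and the cells that Cell Ranger called on mm10, the mouse genome GRCm38, without normalization. The matrix headers give Cell Ranger 7.0.0, and the submitters' processing notes give Cell Ranger 6.1.2 and Seurat 5.3.0.

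Cells were kept from 200 detected genes up and with no more than 10% of UMIs from mitochondrial genes, and 1161, 1032 and 836 Scrublet doublets were removed (0.8% per 1000 cells). Clustering used scanpy 1.11.5 and leidenalg 0.10.2 in Python 3.11.15 on 2000 variable genes, 30 principal components, 20 neighbours and a resolution of 1.5, without batch correction and without the 10 members and the genes of their pathway. A cluster took a name when at least 3 of its markers were detected in at least 10% of cells and led the other lists, and stayed unnamed when its 10 leading genes held more markers of another list. The marker score had to reach 1.5, and unnamed cluster 17 had 0.92. Epithelial clusters had a separate epithelial score, with a minimum of 2.0. The HF-like cluster scored highest for KB markers over all lists (3.72), and its epithelial score was 2.71. The UMIs of a class were summed per library, scaled to CPM of that sum and compared by log2 ratio with 0.5 UMI added to each sum. Each cell was thinned to 2000 UMIs for shares, which left out 3027 of 30598 cells. Summed UMIs set the precision, down to 1 UMI of Ereg and up to 31593 of Egfr in a class. The intervals of the log2 ratios were tested only on simulated sums with Poisson counting error. Such sums lack the clumping of UMIs in single cells, so this test could not show how the intervals hold for these data.

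By the rule for names, the members could be named in every class with at least 20 UMIs (pairs not described in words are in the plots), each with the genes most like it, and pathway genes at 2-fold or more in FB-like or KB-like cells, at most 6 per list; other names were chosen after their values were seen. Members and lists were chosen with earlier results of these data known. Values were recomputed under stricter and looser cell filters, with doublets kept in, with a clustering resolution of 0.8, with scaling by the median of ratios, with every cell given the same weight, with clusters weighted as in CON and from 50 UMIs up. Gene positions came from GENCODE M21 and promoters from RefSeq (6 of 10 members matched). Tests over cells were left out because cells are not replicates.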

Additional observations from a re-analysis of the deposited data

Results flagged for a closer look

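Where a gene was past 2-fold in opposite directions in 2 cell classes of the same comparison, it is listed here as values, and the difference between the classes was not tested, since each class had 1 library per condition. Areg had a log2 ratio of UV over CON of 2.16 in MEL-like cells and -1.20 in LYM-like cells. In MEL-like cells of UV its 48 UMIs lay in 10 cells, 31 of them in 2 cells, and the carriers had a median of 69452 UMIs against 10670.5 in the others. Tgfa had a ratio of UV over CON of 3.89 in MEL-like cells, on the 70 UMIs described above, and -1.39 in epithelial cluster 19. Epgn had 3.25 in SCH-like cells, where 26 UMIs lay in 2 cells of UV and 25 of them in 1 cell, and -1.79 in UHF-like cells. Hbegf had a ratio of Rux over UV of 1.18 in HF-like cells and -1.52 in MYE-like cells. The MEL-like and SCH-like values thus rest on few cells, whose part in the result was not separated from the other cells.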

How the results depend on the processing

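No paired analysis was possible because each condition had 1 library, and for the same reason no replicate could be left out. The count of member and class pairs past 2-fold stayed within 1.5 times the reported one except at a resolution of 0.8, with 24 of 79 pairs for UV over CON and 24 of 66 for Rux over CON, and without doublet removal, with 31 of 108 for Rux over UV. Ratios past 2-fold that changed sign were Areg in LYM-like cells (UV over CON, 0.24 with clusters weighted as in CON) and Nrg1 in LEC-like cells (Rux over CON, 0.56 with equal weight per cell). Without doublet removal the sign changed for Egfr of LYM-like cells (-0.60) and Epgn of SCH-like cells (-0.24) in UV over CON, for Hbegf (-0.61) and Egfr (0.83) of LYM-like cells and Egfr of SCH-like cells (0.48) in Rux over UV, and for Ereg in epithelial cluster 16 (0.88, Rux over CON). The cause was not tested. Of the ratios past 2-fold that each alternative could give, 63 of 70 were past it under the strict and 87 of 96 under the loose filter, 67 of 88 without doublet removal, 54 of 61 at resolution 0.8, 92 of 97 with median-of-ratios scaling and 81 of 97 with equal weight per cell. The alternatives that left out clusters 44, 35 or 28, or counted clusters 2 and 13 as FB-like, were chosen after seeing the data, and without cluster 28 Egfr in VEC-like cells had a log2 ratio of Rux over UV of -1.34. The class with the highest level of a gene in a library was the same in 19 of 30 cases under the strict and 28 under the loose filter, in 25 without doublet removal and in 20 at resolution 0.8. Of the median log2 ratios of the pathway lists, none of 296 moved with median-of-ratios scaling, 36 of 296 with equal weight per cell and 28 of 272 without doublet removal. Of 320 shares of cells with a UMI, 304 moved on thinning. Classes under 50 cells gave no ratio, among them KB-like and KS-like cells of UV.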
